A study of Homo sapiens with 4 samples.

Results

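Long noncoding RNAs that are abundant in the nucleus or the cytoplasm of human cells were followed in RNA immunoprecipitation sequencing (RIP-seq) of KIAA1429. In RIP-seq, a protein is pulled from a cell lysate on antibody-coated beads and the RNAs bound with it are sequenced. The members were the rows listed under the gene names MALAT1, NEAT1, NORAD, TUG1, OIP5-AS1, KCNQ1OT1 and H19, with transcripts kept apart and also summed per gene name. Of the 7 names, 3 had rows: MALAT1 with 15 transcripts, NEAT1 with 4 and NORAD with 1, which is 20 of 34975 listed transcripts and 3 of 13300 gene names. TUG1, OIP5-AS1, KCNQ1OT1 and H19 were not analysed here.

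All libraries were made from HCCLM3, a human liver cancer line of the hepatocellular type, and the labels give no other treatment or allele. A group of 2 replicates was precipitated with an antibody against KIAA1429 (KIAA1429 RIP), and a group of 2 replicates with normal IgG, which gives the background of the procedure (IgG RIP). No untouched lysate library was used here, so a value in KIAA1429 RIP was compared with background and not with the RNA content of the cells. Nothing in the labels says that replicates came from separate cultures, so p-values measure only the spread between these samples, which may be technical. Values were FPKM, the fragments assigned to a transcript per kilobase of its length, scaled to the number of mapped fragments, so they are levels per length.

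KIAA1429, also named VIRMA, is the scaffold of the writer complex that places N6-methyladenosine (m6A) on adenosines, most often within the letters GGAC of an RNA. MALAT1 is a nuclear RNA of the splicing-factor compartments called nuclear speckles and a well-studied carrier of m6A. NEAT1 is the architectural RNA of paraspeckles, made as a short polyadenylated form and as a long form that shares its start. NORAD is mainly a cytoplasmic RNA, named for its activation by DNA damage and known for a role in keeping the genome stable. MALAT1 and the long form of NEAT1 do not end in a usual poly(A) tail: their ends are cut and folded into a triple helix in which a pair of U-rich tracts clamps an A-rich tract. For these libraries the authors kept only poly(A) RNA of the precipitates.

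The letters behind these roles were read from the GRCh37 genome over the listed span of each gene's most abundant transcript, on the transcribed strand only. The spans are those of MALAT1-202 (ENST00000534336.1, chr11:65265233-65273940, plus strand), NEAT1-202 (ENST00000501122.2, chr11:65190269-65213011, plus strand) and NORAD-201 (ENST00000565493.1, chr20:34633544-34638882, minus strand). Each of the 3 is annotated as a noncoding RNA of a single exon. The first set shows GGACT, the GGAC core followed by T and a part of the GGAC count, because the writer complex acts within these letters. For MALAT1 the 3 most closely spaced sites are shown, and for NORAD both of its sites. Capitals mark GGACT.
MALAT1 window 1, chr11:65267733-65267762, plus strand: gaaaaatgtgaaGGACTttcgtaacggaag
MALAT1 window 2, chr11:65267795-65267824, plus strand: tgtttttgcattGGACTttgagttaagatt
MALAT1 window 3, chr11:65267829-65267858, plus strand: tttaaatcctgaGGACTagcattaattgac
NORAD window 1, chr20:34636068-34636097, minus strand: gtcttctgaaaaGGACTtttggaagtgaga
NORAD window 2, chr20:34634189-34634218, minus strand: cagtgtatgtcaGGACTtgttcattaggtt

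The second set shows the 3′ ends of MALAT1 and NEAT1, because these ends set both RNAs apart from polyadenylated ones. Capitals mark the 2 runs of at least 11 bases that the last 500 bases of MALAT1-202 and the last 100 bases of NEAT1-202 share.
MALAT1 U-rich window, chr11:65273529-65273558, plus strand: ttgttttCTCAGGTTTTGCTTTTtggcctt
NEAT1 U-rich window, chr11:65212948-65212977, plus strand: ggccgcaCTCAGGTTTTGCTTTTcaccttc
MALAT1 A-rich window, chr11:65273568-65273597, plus strand: taaaaaaaaAAAAAGCAAAAgatgctggtg
NEAT1 A-rich window, chr11:65212982-65213011, plus strand: ctgtgaaagagtgagcaggAAAAAGCAAAA
The shared U-rich run is 16 bases long and the shared A-rich run 11 bases. In NEAT1 the A-rich run is the end of the listed span of 22743 bases. In MALAT1 it begins at base 8345 of 8708, and the listed span goes on past it, into the part known as the source of the tRNA-like mascRNA.

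Counts of the m6A core letters differed between the 3 RNAs. Transcripts for comparison came only from the 21723 of 34975 listed transcripts whose identifier and version matched a reference sequence. GGAC was found 20 times in MALAT1-202 (2.30 per kb), 58 times in NEAT1-202 (2.55 per kb) and 18 times in NORAD-201 (3.37 per kb). The median over other listed transcripts of like length, within 10% of its own, was 3.09 per kb for MALAT1-202 (182 transcripts) and 3.37 per kb for NORAD-201 (615 transcripts), and 75.8% of those compared with MALAT1-202 held as many GGAC or more. The longer GGACT gave another order. MALAT1-202 held 13 (1.49 per kb), and 12 of the 182 transcripts of like length (6.59%), whose median was 0.834 per kb, held as many or more. Of the 13 sites, 5 lay within 311 bases, from base 2412 to base 2722, and the 3 windows printed for MALAT1 come from there. NORAD-201 held 2 GGACT, and 93.5% of its comparators held as many. NEAT1-202 held 19, and only 3 other transcripts with a matched reference sequence were of like length, too few for a comparison. A match is a description of letters and shows neither a methylated base nor a bound protein.

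**Figure D1:**
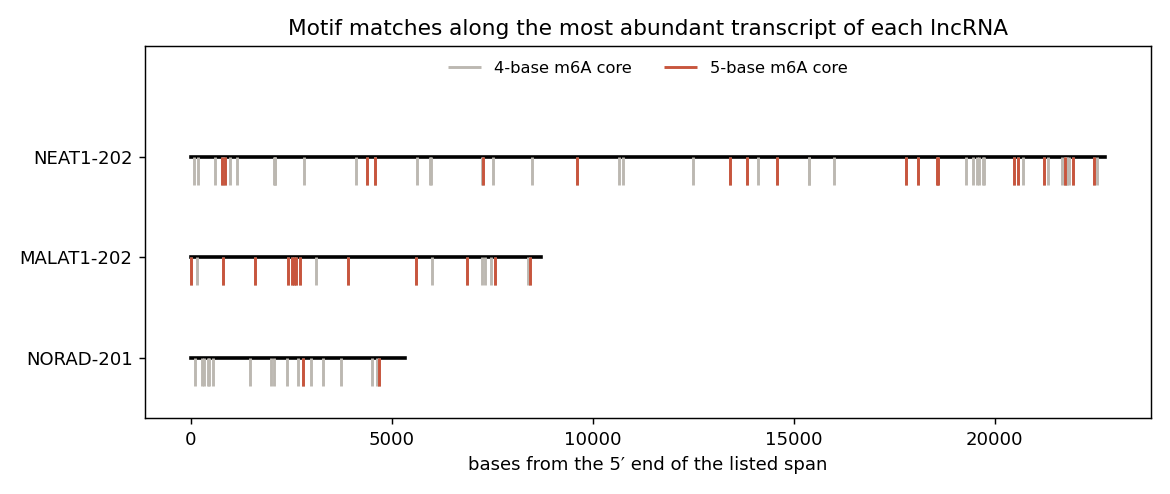
Positions of the m6A core letters along the 3 most abundant transcripts, drawn to scale in bases from the 5′ end of the listed span, with the 4-base core in grey and the 5-base core in red. MALAT1-202 carries 13 of the 5-base core, NEAT1-202 carries 19 and NORAD-201 carries 2, and the tightest run of 5 in MALAT1-202 lies between bases 2412 and 2722.

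The libraries were alike in most respects that the values can show. Their FPKM sums lay between 295573 and 340300, and 26.6% to 32.2% of the listed transcripts were at 0. A single gene name, AL139099.5, held 3.17% to 3.25% of the sum in IgG RIP and 5.34% to 5.80% in KIAA1429 RIP. With libraries scaled to equal FPKM sums without it, the limma log2 fold changes were -1.26 for MALAT1, -0.70 for NEAT1 and -0.81 for NORAD, and 0 gene totals passed. Of 18 hepatocyte and hepatoma markers, 17 were listed, and their summed level was 522 to 561 FPKM in IgG RIP and 467 to 516 FPKM in KIAA1429 RIP, with the defining markers AFP and ALB above 0 in every library. Of 5 epithelial markers 4 were listed, with sums of 1290 to 1539 FPKM in IgG RIP against 1510 to 1712 FPKM in KIAA1429 RIP. Of 12 markers of fibroblasts, blood and other cells, 4 were listed (ACTA2, CD68, COL3A1 and LYZ), with sums of 87.9 to 117 FPKM in IgG RIP and 69.3 to 104 FPKM in KIAA1429 RIP. These sums describe RNA recovered in the precipitates of 1 cell line, and measure neither the number of cells of a type nor the RNA per cell.

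All 3 RNAs had a lower mean level in KIAA1429 RIP than in IgG RIP, and none of the 3 differences passed the test. The mean was lower by 1.99-fold for MALAT1, 1.67-fold for NEAT1 and 1.63-fold for NORAD. The groups overlapped for MALAT1 and NEAT1 and did not overlap for NORAD. A mean lower in KIAA1429 RIP was found for 49.4% of the 11361 gene totals tested, and groups that did not overlap, with KIAA1429 RIP lower, for 15.2%. In limma's fit over all gene totals with Benjamini-Hochberg adjustment, 0 of 11361 (0%) passed the call (adjusted p under 0.05 and a log2 fold change beyond 1), the smallest adjusted p was 0.515, and 522 had an unadjusted p under 0.05.

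MALAT1 (ENSG00000251562.7) was the most abundant of the 3 in 3 of the 4 libraries. Its summed level was 484 FPKM and 981 FPKM in the IgG RIP replicates 1 and 2, and 569 FPKM and 169 FPKM in the KIAA1429 RIP replicates 1 and 2. The highest value was in IgG RIP replicate 2 and the lowest in KIAA1429 RIP replicate 2, while both replicates 1 lay between them. The group means were 733 ± 352 FPKM (SD, n = 2) in IgG RIP and 369 ± 283 FPKM (SD, n = 2) in KIAA1429 RIP. The log2 ratio of the means was -0.99 with an error of 1.43, so the difference was smaller than the spread between replicates. In limma's fit of log2(FPKM + 1) the log2 fold change was -1.15 with a standard error of 0.63 (adjusted p = 0.997).

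MALAT1 stood among the most abundant RNAs of every library. Its rank among the 13300 gene names was 56 and 26 in IgG RIP, against 79 and 244 in KIAA1429 RIP. Of all FPKM in a library it made up 0.164% and 0.311% in the IgG RIP replicates, against 0.169% and 0.0496% in the KIAA1429 RIP replicates. Among the 359 gene names with a transcript of the type lincRNA, it ranked 5 in the first 3 of these libraries and 10 in KIAA1429 RIP replicate 2.

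NEAT1 (ENSG00000245532.7) was lower than MALAT1 in every library. Its summed level was 27.1 FPKM and 97.3 FPKM in IgG RIP and 52.4 FPKM and 21.9 FPKM in KIAA1429 RIP. As for MALAT1, IgG RIP replicate 2 was highest and KIAA1429 RIP replicate 2 lowest, and the groups overlapped. The group means were 62.2 ± 49.6 FPKM and 37.2 ± 21.6 FPKM (SD, n = 2 each), and the log2 ratio was -0.74 with an error of 1.58. The limma log2 fold change was -0.59 with a standard error of 0.65 (adjusted p = 0.997). Its direction rested on the replicates numbered 2: without IgG RIP replicate 2 the limma log2 fold change was 0.32, and without KIAA1429 RIP replicate 2 it was 0.02.

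NORAD (ENSG00000260032.1) varied least between replicates. Its single listed transcript had 295 FPKM and 223 FPKM in IgG RIP and 136 FPKM and 183 FPKM in KIAA1429 RIP. Both KIAA1429 RIP values lay below both IgG RIP values. The group means were 259 ± 51.3 FPKM and 159 ± 33.1 FPKM (SD, n = 2 each), and the log2 ratio was -0.70 with an error of 0.42. The limma log2 fold change of its gene total was -0.70 with a standard error of 0.32 (adjusted p = 0.997). An exact two-sided permutation test of 2 libraries against 2 cannot go below p = 0.333, so it was not used for a single RNA.

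The log2 ratios of the 3 RNAs were placed among all gene totals as a description. MALAT1 had the rank 711 from the lowest of 11361, with 6.25% of gene totals lower. NEAT1 followed at rank 1152 (10.1% lower) and NORAD at rank 1273 (11.2% lower). Ratios of low gene totals scatter widely, so the 3 RNAs were also placed among the 2762 gene totals with a mean of at least 20 FPKM, a limit chosen after the values were seen. There the median log2 ratio was 0.06, and a lower ratio than that of MALAT1 was found for 21 gene totals (0.760%), than that of NEAT1 for 60 (2.17%) and than that of NORAD for 70 (2.53%). In that set both KIAA1429 RIP values lay below both IgG RIP values, as for NORAD, in 12.7%, and above them in 20.9%. A mean at least 2-fold lower was found for 6.14% of gene totals and at least 2-fold higher for 7.58%, and for 0 of the 3 RNAs. MALAT1 lay close to that line, and its log2 ratio of means was -1.12 with libraries scaled to equal FPKM sums and -1.09 with equal sums without AL139099.5, past 2-fold. A log2 fold change beyond 1 with an unadjusted p under 0.05 was found for 266 gene totals above (2.34%) and 135 below (1.19%), which became 181 above and 211 below when libraries were scaled to the same FPKM sum. None of the 3 RNAs was among them in this fit. MALAT1 met both limits with the replicate number as a block (log2 fold change -1.15) and under quantile normalization (-1.44). In those settings 220 and 149 of 11361 gene totals met both limits below. Under the other settings that kept all libraries, MALAT1 did not meet both. Without KIAA1429 RIP replicate 1 its log2 fold change was -2.02, and without KIAA1429 RIP replicate 2 it was -0.28. The block treats replicates of the same number as pairs. In MALAT1 the log2 differences of these pairs had opposite signs, 0.23 for number 1 and -2.54 for number 2.

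**Figure D2:**
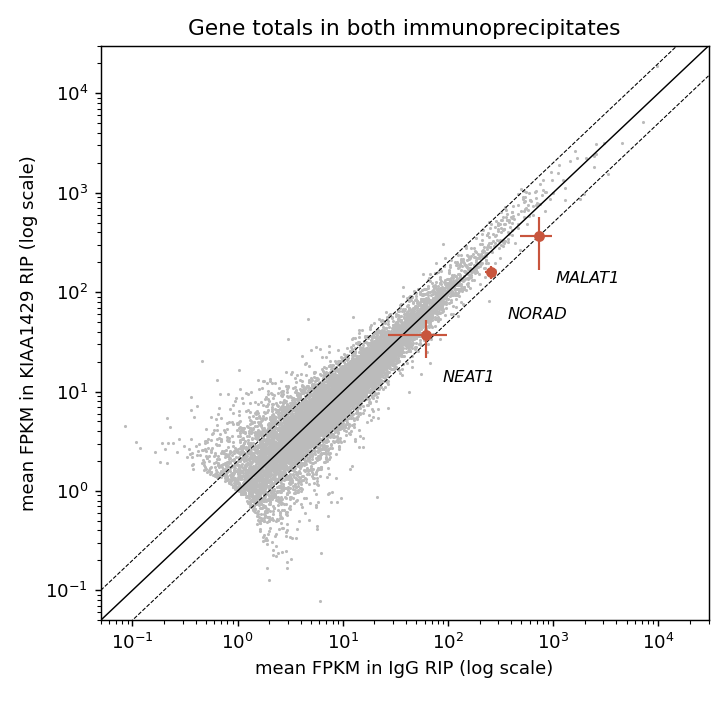
Mean FPKM in IgG RIP against mean FPKM in KIAA1429 RIP for the gene totals tested (both axes log scale), with the line of equality, dashed lines at 2-fold, and MALAT1, NEAT1 and NORAD marked with bars that span their replicates. The 133 gene totals listed at 0 in both libraries of a group are not drawn, and the 3 RNAs lie below the line of equality and above the lower 2-fold line, at the lower edge of gene totals of like level, and the bars of MALAT1 and NEAT1 are long.

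The spread between replicates separated the 3 RNAs more than the difference between groups did. For MALAT1 the higher replicate was 2.03 times the lower in IgG RIP and 3.37 times in KIAA1429 RIP, and for NEAT1 the values were 3.59 and 2.40. For NORAD they were 1.33 and 1.34. The medians over 2762 gene totals with a mean of at least 20 FPKM were 1.36 and 1.24. A larger fold between replicates than that of MALAT1 was found for 11.7% of these gene totals in IgG RIP and 1.34% in KIAA1429 RIP, and for NEAT1 for 1.23% and 4.09%. The shares for NORAD were 53.1% and 37.1%, near the middle.

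MALAT1 and NEAT1 had the same order of libraries, IgG RIP replicate 2, KIAA1429 RIP replicate 1, IgG RIP replicate 1 and KIAA1429 RIP replicate 2 from high to low. The order was read from these totals, and as a description it was found for 306 of 11361 gene totals (2.69%). NORAD had another order, with IgG RIP replicate 1 highest and KIAA1429 RIP replicate 1 lowest. Between replicates of the same number, the log2 difference of KIAA1429 RIP from IgG RIP was 0.23 and -2.54 for MALAT1, 0.95 and -2.15 for NEAT1, and -1.12 and -0.29 for NORAD. For the 2 nuclear RNAs the number 1 libraries thus differed in the opposite direction to the number 2 libraries, and for NORAD both differences were below 0. The numbers only name the samples, and nothing in the labels pairs them.

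The proportions of the 3 RNAs followed from these patterns. MALAT1 was 17.9 and 10.1 times NEAT1 in IgG RIP and 10.8 and 7.71 times in KIAA1429 RIP. Against NORAD, MALAT1 was 1.64 and 4.4 times as high in IgG RIP and 4.18 and 0.923 times in KIAA1429 RIP, so the order of these neighbours turned in 1 library and their levels did not differ beyond their spread. The sum of the 3 was 807 FPKM and 1302 FPKM in IgG RIP and 757 FPKM and 373 FPKM in KIAA1429 RIP.

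The 15 listed MALAT1 transcripts were dominated by MALAT1-202, the form of full length. It had 406 FPKM and 827 FPKM in IgG RIP and 491 FPKM and 138 FPKM in KIAA1429 RIP. Its share of the summed MALAT1 level was 83.8% and 84.2% in IgG RIP, against 86.3% and 82.1% in KIAA1429 RIP, so the share was steady while the level moved. The range of 4.24 percentage points was narrow among 7580 genes with more than 1 listed transcript. Of these genes, 2.18% had a smaller range for their most abundant transcript (median 46.0 points). The 7580 genes include gene totals down to a mean of 1 FPKM, far below MALAT1, and no comparison at like level was made. The limma log2 fold change of MALAT1-202 was -1.15 with a standard error of 0.73 (adjusted p = 0.879).

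Of the other 14 MALAT1 transcripts, 13 lay within the listed span of MALAT1-202 and MALAT1-209 ran past its end, all on the same strand, so they share sequence with it, and how the authors' estimate divided fragments among them is not given in the sources used here. For 3 of the 14 the groups did not overlap, each time with KIAA1429 RIP lower. Over all transcripts tested, 14.5% lay lower and 15.2% higher without overlap. The 14 include MALAT1-206 and MALAT1-207, which were not tested, so these shares are not on the same basis. MALAT1-212 (ENST00000618132.1, chr11:65271476-65272319) had 16.8 FPKM and 76.9 FPKM in IgG RIP, and 14.5 FPKM and a listed 0 in KIAA1429 RIP. MALAT1-205 (ENST00000610851.1, chr11:65271990-65273939) had 8.36 FPKM and 14.2 FPKM in IgG RIP and 3.79 FPKM and 6.77 FPKM in KIAA1429 RIP. MALAT1-213 (ENST00000618227.1, chr11:65272309-65273936) had 2.23 FPKM and 3.21 FPKM in IgG RIP and was listed at 0 in both KIAA1429 RIP libraries, so it passed the filter of a mean of at least 1 FPKM through IgG RIP alone. The adjusted p in limma's fit was 0.879 for each of the 3. They lie in the 3′ part of the span, past the tightest run of GGACT sites. That position is not particular to the 3 forms. Most other MALAT1 forms also start past that run, among them MALAT1-201, MALAT1-209 and MALAT1-214, whose groups overlapped. MALAT1-212 and MALAT1-213 overlap each other only at their ends.

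The remaining MALAT1 forms all overlapped between the groups, MALAT1-206 and MALAT1-208 only through values listed at 0. MALAT1-204 had 7.94 FPKM and 11.9 FPKM in IgG RIP and 18.3 FPKM and 4.45 FPKM in KIAA1429 RIP. MALAT1-203 had 9.44 FPKM and 8.53 FPKM against 10.6 FPKM and 4.33 FPKM, and MALAT1-201 had 16.4 FPKM and 12.4 FPKM against 15.9 FPKM and a listed 0. The number of MALAT1 transcripts listed at 0 was 3 and 3 in IgG RIP, against 4 and 7 in KIAA1429 RIP, or 20% in each against 26.7% and 46.7%. Over all listed transcripts these shares were 26.6% and 32.2% in IgG RIP, against 28.2% and 29% in KIAA1429 RIP, so KIAA1429 RIP replicate 2, the library with the lowest MALAT1 level, listed more MALAT1 forms at 0 than its own overall share.

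**Figure D3:**
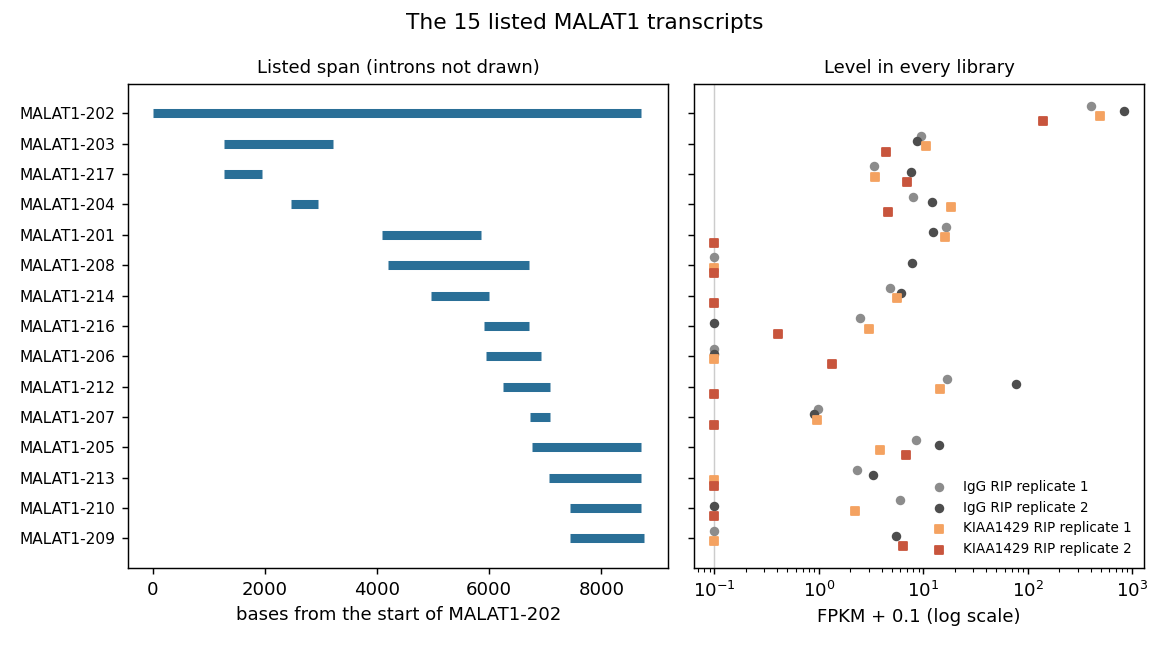
FPKM + 0.1 of each of the 15 listed MALAT1 transcripts in each library (log axis), beside the listed span of each transcript in bases from the start of MALAT1-202, with 1 point per replicate. MALAT1-202 lies at 138 to 827 FPKM and every other form at 76.9 FPKM or lower, and points on the line at the left of the level panel are listed at 0.

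NEAT1 divided between listed forms of which only NEAT1-201 and NEAT1-202 start close together. NEAT1-204 and NEAT1-205 begin 487 and 2782 bases after the start of NEAT1-202. NEAT1-202, the long form, had 22.8 FPKM and 58.6 FPKM in IgG RIP and 24.5 FPKM and 9.12 FPKM in KIAA1429 RIP, with a limma log2 fold change of -1.23 and a standard error of 0.69 (adjusted p = 0.879). The groups overlapped. NEAT1-201 (ENST00000499732.2, chr11:65190245-65192298), a short form at the start of the gene, was listed at 0 in IgG RIP replicate 1, at 33.1 FPKM in IgG RIP replicate 2, and at 22.8 FPKM and 7.98 FPKM in KIAA1429 RIP. The mean level of NEAT1-201 in IgG RIP thus rests on 1 library. NEAT1-205 had 4.33 FPKM and 5.57 FPKM in IgG RIP and 5.13 FPKM and a listed 0 in KIAA1429 RIP, and NEAT1-204 was above 0 only in KIAA1429 RIP replicate 2, at 4.78 FPKM.

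The share of NEAT1-202 in the summed NEAT1 level was 84.0% and 60.2% in IgG RIP, against 46.7% and 41.7% in KIAA1429 RIP. Both shares in KIAA1429 RIP were below both in IgG RIP, as was found for 13.8% of the 7580 most abundant transcripts (15.3% had shares above). The difference of the group means was -27.9 percentage points. Over the 4 libraries the share ranged by 42.4 points, near the median of 46.0 points, and 46.3% of the 7580 genes had a smaller range. Here too the genes were not matched in level. FPKM is a level per length, so a long form holds more of the fragments than of the summed FPKM. Weighted by listed span, the share of NEAT1-202 was 99.3% and 94.8% in IgG RIP, against 91.6% and 90.5% in KIAA1429 RIP, a difference of -6.02 points. For the listed values these weighted shares are lower bounds, because the listed span can exceed the spliced length of the other forms. NEAT1-204 and NEAT1-205 lie within the span of NEAT1-202, and NEAT1-201 starts shortly before it on the same strand. These forms share sequence, and how the authors' estimate divided fragments among them is not given in the sources used here. The shares therefore do not show how much RNA of the long form was present. The first AATAAA, the letters of a poly(A) signal, after the listed end of NEAT1-201 began at base 3706 of NEAT1-202, 1676 bases after that end, and is shown with AATAAA in capitals.
NEAT1 AATAAA window, chr11:65193962-65193991, plus strand: ctttacagcacaAATAAAgtttgagttcta

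**Figure D4:**
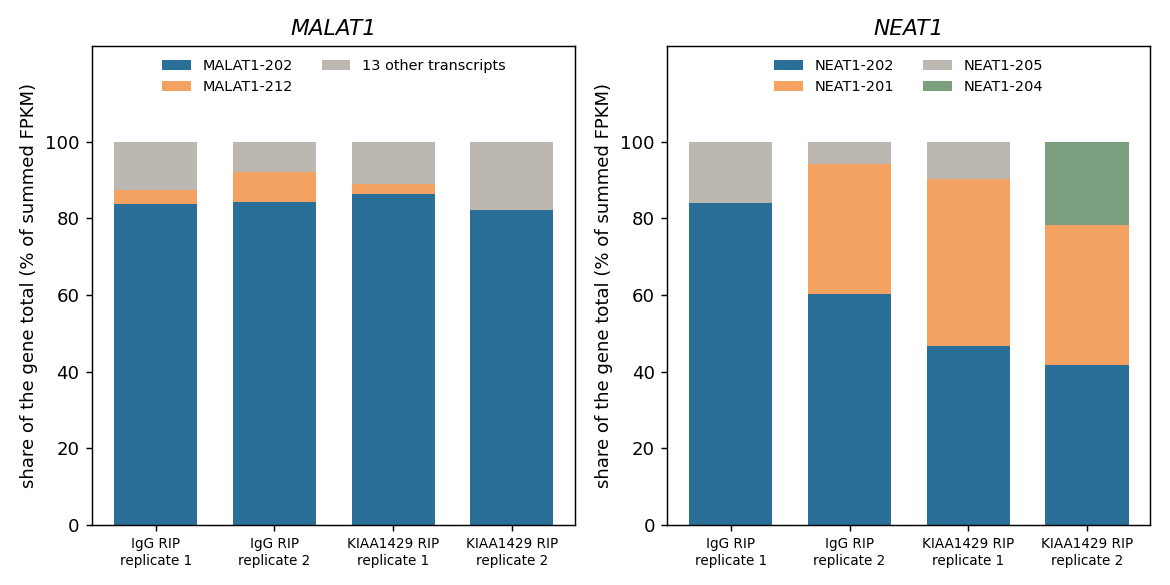
Share of each listed transcript in the summed FPKM of MALAT1 and of NEAT1, as stacked bars from 0 to 100% for each library. The MALAT1-202 share stays between 82.1% and 86.3%, and the NEAT1-202 share is 84.0% and 60.2% in IgG RIP against 46.7% and 41.7% in KIAA1429 RIP.

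Of the 20 transcripts of the 3 RNAs, 18 passed the filter of a mean of at least 1 FPKM, and the other 2 were MALAT1-206 and MALAT1-207. Among the 20, 15 had a lower and 5 a higher mean in KIAA1429 RIP. Of the 18 tested, 14 had a lower mean, against 50.1% of all transcripts tested. Groups that did not overlap, with KIAA1429 RIP lower, were found for 4 of 18 tested, the 3 MALAT1 forms named and NORAD-201, against 14.5% of 23375 transcripts tested. The filter had a part in this count, since MALAT1-213 passed it through the group in which it is high. For 0 of 18 were both KIAA1429 RIP values above both IgG RIP values, against 15.2% of all. A mean at least 2-fold lower was found for 6 of 18, against 20.3%, and at least 2-fold higher for 1 of 18, against 19.9%. The transcripts of a gene share sequence and libraries and are not separate replicates. In limma's fit 0 of 23375 transcripts (0%) passed, with a smallest adjusted p of 0.255, 1253 had an unadjusted p under 0.05, and 0 of the 18 were among these. With a log2 fold change beyond 1 as well, 2.89% of all transcripts lay above and 2.32% below.

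The gene total nearest to each RNA in level over the 4 libraries, by Euclidean distance of log2(FPKM + 1), was an mRNA in each case. For NORAD it was KHSRP, a KH-domain RNA-binding protein, at a distance of 0.432, with 271 FPKM and 178 FPKM in IgG RIP and 115 FPKM and 170 FPKM in KIAA1429 RIP. For NEAT1 it was FKBP10, a prolyl isomerase of the endoplasmic reticulum, at a distance of 1.02, with 41.8 FPKM and 78.1 FPKM against 45.7 FPKM and 37.1 FPKM. For MALAT1 it was ACTB, beta-actin, at a distance of 1.63, with 555 FPKM and 403 FPKM against 304 FPKM and 224 FPKM. The distance of MALAT1 to its nearest neighbour was the largest of the 3, so no gene total followed it closely.

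Other long noncoding RNAs served as a comparison. Of 53 names, 20 had rows and 19 were tested, with a median log2 ratio of -0.04 against 0.01 over all gene totals. Both KIAA1429 RIP values were above both IgG RIP values for 1 of the 19, against 16.6% of all gene totals, and below for 4 of the 19, against 15.2%. The 1 above was CYTOR, with 107 FPKM and 200 FPKM in IgG RIP and 205 FPKM and 265 FPKM in KIAA1429 RIP. Below were FTX, a regulator of the X-inactivation region (7.66 and 4.58 FPKM against 1.91 and 2.62 FPKM), and MIR22HG, the host of miR-22 (5.03 and 7.06 FPKM against 1.86 and 3.34 FPKM). HCG11 had 3.42 FPKM and 3.64 FPKM against 1.04 FPKM and 2.75 FPKM. Over all 359 gene names with a lincRNA transcript the median log2 ratio was -0.18, with 203 lower and 156 higher, 76 below without overlap and 55 above.

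The mRNAs of proteins that work with these RNAs gave the following counts, with 0 called in each list. Of the nuclear speckle proteins, the compartment of MALAT1, 18 of 18 were tested, 4 had both KIAA1429 RIP values above and 4 below, and the median log2 ratio was 0.09. These and the following counts are to be read against the 16.6% of all gene totals above and 15.2% below. The helicase DDX39B was the 1 of the list with an unadjusted p under 0.05 (51.8 and 48.9 FPKM in IgG RIP, 77.3 and 84.9 FPKM in KIAA1429 RIP, limma adjusted p = 0.997). The splicing factor SRSF1 had a log2 ratio of 0.78, and the speckle scaffold proteins SRRM2 and SON had -0.62 and -0.40. Of the paraspeckle proteins, which bind NEAT1, 18 were tested of 20 named, 3 had both values above, a share near that of all gene totals, and 0 below, and the median was 0.25. Those 3 were RBMX (0.59), RBM12 (0.27) and NONO (0.26), the last a core protein that binds NEAT1 directly.

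Of 18 binding partners and neighbours of the RNAs, 17 were tested, 1 above and 3 below (against 16.6% and 15.2% of all gene totals), with a median of -0.17. The 1 above was again RBMX, which both lists hold. Below were EZH2, the methyltransferase of a Polycomb complex, with 8.33 FPKM and 1.86 FPKM in IgG RIP and 1.38 FPKM and 1.46 FPKM in KIAA1429 RIP, together with EHMT2 (log2 ratio -0.48) and the m6A reader IGF2BP2 (-0.23). The ratio of EZH2 rests on IgG RIP replicate 1. That of EHMT2 rests on KIAA1429 RIP replicate 1, with 20.94 FPKM and 20.93 FPKM in IgG RIP against 9.15 FPKM and 20.91 FPKM. Of 8 m6A writer mRNAs tested, the catalytic subunit METTL3 was the 1 without overlap, against 16.6% of all gene totals above, with 1.19 FPKM and 0.498 FPKM in IgG RIP and 7.44 FPKM and 6.04 FPKM in KIAA1429 RIP (limma adjusted p = 0.946).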

How the data were processed

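RIP-seq of HCCLM3 cells was taken as 4 libraries, 2 of KIAA1429 RIP and 2 of IgG RIP, grouped by their labels. The authors deposited 1 FPKM value per transcript and library, after poly(A) selection, random priming and alignment to GRCh37/hg19. The paper's methods name HISAT2, the submitters' processing notes name Bowtie2 2.1.0, and the tool that estimated FPKM is not given in the sources used here. Each listed transcript had a mean of at least 0.5001 FPKM in one of the groups. Read counts could not be recovered from the values (29.8% to 43.4% of low values lay within 0.05 of whole multiples), so the depth is unknown and no counting interval is given; precision was judged from 2 replicates per group.

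Transcripts (23375) and gene totals (11361) with a mean of at least 1 FPKM entered limma 3.58.1 (R 4.3.3; trend, two-sided, Benjamini-Hochberg adjustment) on the log2(FPKM + 1) scale, which understates changes of low genes. A call needed an adjusted p under 0.05 together with a log2 fold change beyond 1. Log2 ratios of group means have no pseudocount, and their error is the root of the summed squared SDs of the log2 values. The fit was tested on simulated data. Tables used Python 3.11.15, numpy 2.4.6 and pandas 2.3.3. The members and all gene lists were chosen with earlier results of these data known. Named genes were the members, their most abundant transcripts, transcripts without overlap and at least 2-fold apart, the nearest gene total of each, and at most 3 genes per list and direction without overlap. Genes and transcripts named beside these, such as other MALAT1 and NEAT1 forms, AL139099.5 and markers, were chosen after their values were seen. Sequences are from the GRCh37 primary assembly at the listed coordinates, and 21723 of the 34975 listed transcripts have the same identifier and version in the supplied GENCODE annotation. Alternatives were pseudocounts of 0.1 and 0.01, no filter or 5 FPKM, 4 scalings, limma without trend, a replicate block, the most abundant transcript per gene, and each library left out. One item is not reported here.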

Additional observations from a re-analysis of the deposited data

How the results depend on the processing

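Of 123 values under other settings than leaving out a library, 121 counted as unchanged. A limma log2 fold change had to keep its direction and its side of the call, which needs an adjusted p under 0.05. A count of calls had to stay the same. Ratios of means and share differences had to move by less than the spread between replicates. In the main limma fit the adjusted p of each log2 fold change followed was 0.879 or higher. That left little room to cross the call, so the tally does not show that sizes were stable. MALAT1-213 went from -1.88 to -8.07 with a pseudocount of 0.01, and NEAT1 from -0.59 to -1.23 with its most abundant transcript. Both counted as unchanged. The log2 limit of 1 alone was crossed by some values, such as the MALAT1 ratio of means, from -0.99 to -1.12 with equal FPKM sums and -1.09 with equal sums without AL139099.5. Whether the replicate numbers pair the samples was not decided: the labels give only numbers, and over the 2 pairs deviations of same-numbered libraries correlated at 0.187 over gene totals and 0.0299 over transcripts. With the number as a block, 13 gene totals passed in place of 0 (12 higher, 1 lower), none of them MALAT1 (adjusted p = 0.427 in limma), NEAT1 (0.849) or NORAD (0.417), and transcripts stayed at 0. The other value that changed was the NEAT1-202 share difference. It kept its direction but went from -27.9 to -6.02 points when weighted by length. Scaling to equal FPKM sums moved the median of all gene totals from 0.02 to -0.11 on the log2 scale, with MALAT1 at -1.30, NEAT1 at -0.73 and NORAD at -0.85. The lowest adjusted p over all alternatives was 0.427 for MALAT1, 0.746 for NEAT1 and 0.417 for NORAD.

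With each library left out, log2 fold changes ran from -2.02 to -0.28 for MALAT1, from -1.49 to 0.32 for NEAT1 and from -0.91 to -0.49 for NORAD, where the lone library left in a group is assumed to vary like the other. NEAT1 turned to 0.32 without IgG RIP replicate 2 and 0.02 without KIAA1429 RIP replicate 2. The cause was not tested. Log2 ratios of the means ran from -2.12 to -0.37, -1.51 to 0.46 and -0.93 to -0.48. Transcripts ran from -2.06 to -0.24 (MALAT1-202), -5.22 to -1.27 (MALAT1-212), -1.32 to -0.62 (MALAT1-205), -2.08 to -1.69 (MALAT1-213) and -1.90 to -0.56 (NEAT1-202). The MALAT1-202 share difference, 0.18 points, ran from -1.94 to 2.30 and that of NEAT1-202 from -39.8 to -16.1. MALAT1-213 has no value under the filter of 5 FPKM. The count tests listed for count files were not run, since the files hold FPKM. Unknown depth limits every value listed at 0.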
